A study of Mus musculus with 6 samples.

Results

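The 10 genes described here are liver genes that are known in mice to depend on the pulsatile, male pattern of growth hormone release: Mup1, Mup3, Mup20, Mup21, Cyp2d9, Hsd3b5, Elovl3, Slco1a1, Selenbp2 and Ugt2b38. They were picked out by symbol from a table of 17460 genes, all 10 were found, and all 10 passed the filter on low values that left 17297 genes to test. The choice was made with measured values known, namely the difference between the same 6 livers compared here, so that the difference of each of the 10 genes between the groups is given as a description, without a test. Growth hormone itself was not measured in these livers, and the name of the set rests on what is known of the genes.

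The livers came from C57BL/6 mice aged 9 months that had eaten a nonalcoholic steatohepatitis (NASH) diet for 24 weeks, 3 labelled control and 3 labelled Blnc1 LKO (liver-specific knockout). Blnc1 is a long noncoding RNA, and per the study's methods LKO mice were made by injecting mice that carry a Cas9 transgene with an adenovirus that expresses sgRNAs against Blnc1, a route that mainly reaches hepatocytes. For its high-fat diet cohort the study describes Cas9 mice given a GFP adenovirus as the control, and the labels of the NASH livers give the genotype of the control mice only as control. RNA of whole liver was sequenced, so that fewer cells of a type and less RNA per cell cannot be told apart.

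In male mice the pituitary releases growth hormone in pulses, and each pulse activates the transcription factor STAT5b in hepatocytes, whereas females have a more continuous pattern. Genes that need the pulses are therefore higher in male than in female liver, and they are known to fall when the pulses are lost. The set holds secreted pheromone carriers of the major urinary protein (Mup) family, enzymes of steroid, drug and fatty acid metabolism, a membrane transporter and a selenium-binding protein.

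The 6 libraries held between 65384969 and 89350181 reads. The labels state no sex, and 4 genes of the Y chromosome summed to between 11382 and 16045 normalized counts in each liver, against 8.52 to 20.7 for Xist. Over all 17297 genes, limma with Benjamini-Hochberg adjustment called 1 gene (0.00578%) at an adjusted p under 0.05, and DESeq2 called 84. The targeted RNA, Blnc1, was not analysed here because no row of the table carries its name.

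All 10 genes had a higher mean in Blnc1 LKO than in control livers, a direction that 49.6% of all tested genes shared and that the choice of the genes fixed. Their log2 fold changes ran from 0.49 for Mup20 to 4.04 for Hsd3b5, with a median of 0.84, while the median over all tested genes was −0.00099. In 3 of the 10, Mup20, Cyp2d9 and Hsd3b5, every LKO liver lay above every control liver, a pattern found in 5.35% of all genes, and the reverse pattern was found in 5.28%. The other 7 overlapped between the groups, and in each of them LKO replicate 2 lay below control replicate 2. For Mup21 and Ugt2b38 it also lay below control replicate 3, and for Selenbp2 LKO replicate 3 also lay below control replicate 2. Levels are given below as normalized counts, which are reads divided by the size factor of each library, and fold changes are on the log2(normalized count + 1) scale.

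**Figure D1:**
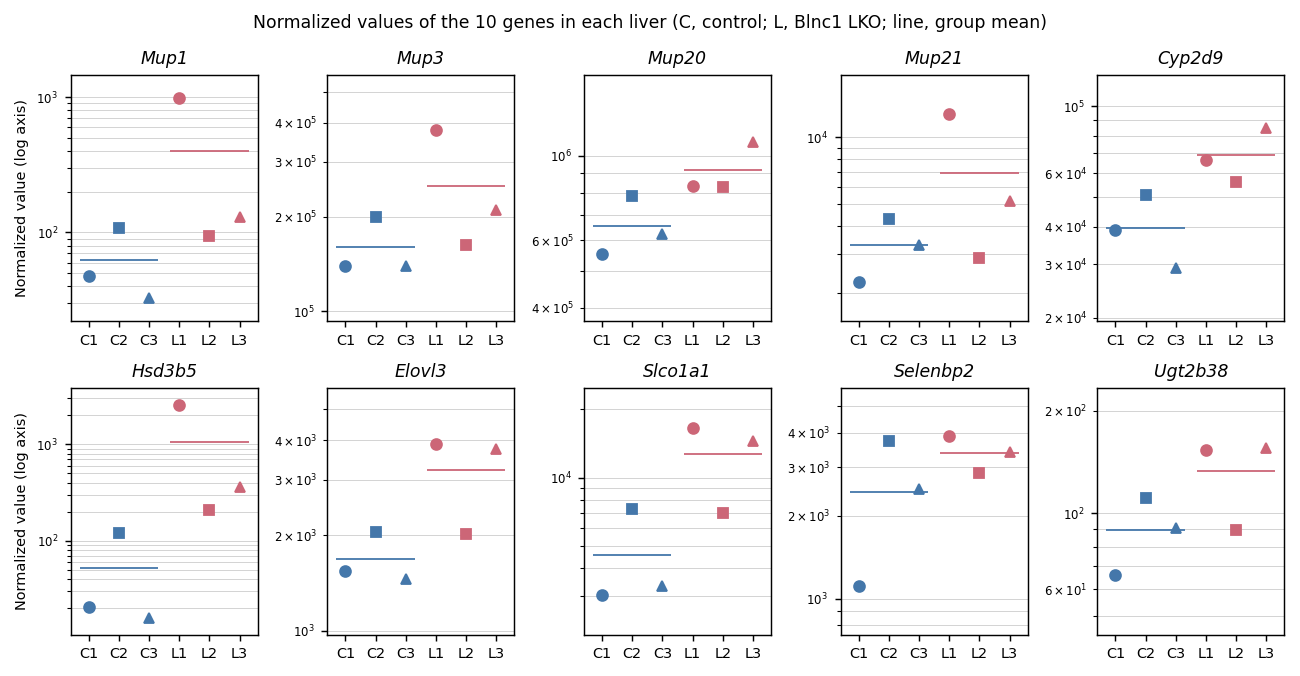
Normalized counts of the 10 genes (vertical axis, logarithmic) in control livers 1 to 3 (C1 to C3, blue) and Blnc1 LKO livers 1 to 3 (L1 to L3, red), with a line at each group mean and 1 point per liver. C2 is the highest control and L2 the lowest LKO liver in every panel, and the groups are separate only for Mup20, Cyp2d9 and Hsd3b5.

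Of the set, 4 genes encode urinary proteins. Mup20, also called darcin, is a male pheromone of mouse urine, and it had the highest level of the 10 genes also per kilobase of exon, with means of 705080 normalized counts per kilobase in control and 988510 in LKO livers. It was at 552351, 786771 and 623800 normalized counts in the control livers and at 835198, 829270 and 1087553 in the LKO livers. All LKO livers were above all controls, and control replicate 2 was the closest of the controls to them. The means were 654310 ± 120150 and 917340 ± 147440 (SD, n = 3 each), a ratio of 1.40 and a log2 fold change of 0.49 (SE 0.20). The gene lies at chr4:62050234-62054158 on the minus strand (GRCm38, GENCODE M21).

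Mup3, another abundant urinary lipocalin, was at 139286, 200634 and 139688 normalized counts in control and at 379641, 162255 and 209778 in LKO livers. LKO replicate 1 was far above the rest, and LKO replicate 2 was no higher than the highest control. The ratio of the means was 1.57 and the log2 fold change 0.58 (SE 0.29), which dropped to 0.23 without LKO replicate 1. Mup21, its nearest relative in sequence, was at 2240, 4298 and 3305 normalized counts in control and at 12747, 2870 and 5157 in LKO livers. Its log2 fold change of 0.86 (SE 0.47) was 0.28 without LKO replicate 1, the liver that held the highest level by a wide margin, and 1.36 without LKO replicate 2. Mup3 occupies chr4:62083476-62087342 and Mup21 chr4:62147932-62150863, both on the minus strand.

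Mup1 was the least abundant of the 4 urinary protein genes. Its reads numbered 51, 101 and 31 in the control libraries and 822, 101 and 156 in the LKO libraries. In normalized counts the livers stood at 47.5, 108 and 33.02 in control and 978, 94.9 and 130 in LKO, so that LKO replicate 1 alone set the mean of its group. The log2 fold change was 2.03 (SE 0.81) with all livers and 0.99 without that one. Mup1 (chr4:60498012-60501960, minus strand) also shared 61.6% of its 50-base exonic windows with other genes, mainly Mup9, Mup12 and Mup8, and the longest coding sequence of Mup9 was 99.43% identical to that of Mup1. How reads of such copies were divided among them cannot be seen in the table, so the level of Mup1 is uncertain. The shared part was 50.5% for Mup20, mostly with the pseudogene Mup-ps19, 19.3% for Mup21 and 13.3% for Mup3.

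The promoters of Mup3 and Mup21 were compared because the 2 genes lie near each other and had their highest level in the same liver. Promoter sequences came from RefSeq (GRCm38.p6, 250 bases before to 50 after the start), where 7 of the 10 genes matched. Mup1, Mup20 and Elovl3 are named only. Over the 250 bases before the start, Mup3 and Mup21 were 89.06% identical. Both hold 2 copies of ATCAAT, the core of the sequence that HNF6, a liver transcription factor with a part in sex-biased expression, is known to bind. The stretches below run 5′ to 3′ on the minus strand, with both copies in capitals, at chr4:62087402-62087489 for Mup3 and chr4:62150920-62151007 for Mup21. Mup7, at chr4:60070479-60070567, and Mup14, at chr4:61304085-61304173, are shown as family members outside the set with higher fold changes.
Mup3: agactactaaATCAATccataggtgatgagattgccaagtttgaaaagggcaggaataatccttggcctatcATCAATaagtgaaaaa
Mup21: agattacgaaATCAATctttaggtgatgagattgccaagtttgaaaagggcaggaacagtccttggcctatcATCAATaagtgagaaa
Mup7: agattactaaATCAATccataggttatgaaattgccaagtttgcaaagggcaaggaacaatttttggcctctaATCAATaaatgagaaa
Mup14: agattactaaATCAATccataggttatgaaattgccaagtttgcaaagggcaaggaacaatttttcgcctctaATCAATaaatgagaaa

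The first bases of the 2 copies lay 62 bases apart in Mup3 and Mup21 and 63 bases apart in Mup7 and Mup14. All 14 Mup promoters of the RefSeq table held 2 copies on either strand, against 0.694% of all 32851 promoters with at least 2 and 7.54% with at least 1. Outside the urinary proteins, none of the other 5 promoters of the set held the letters. The STAT5 letters TTCNNNGAA, which read the same on both strands, were in 0 of the 7 promoters and in 8.3% of all. TATAAA was found on either strand in 3 of the 7, those of Selenbp2, Slco1a1 and Cyp2d9, and in 13.6% of all promoters. None of the 4 promoters shown held TTCNNNGAA or TATAAA, so that neither overlaps a copy of ATCAAT there, and each match is a description of the letters only. For Hsd3b5, Cyp2d9, Selenbp2, Mup3 and Mup21 the RefSeq start differs from the outermost GENCODE start. The gap is large for Hsd3b5, which starts at chr3:98645534 in RefSeq and at chr3:98630252 in GENCODE. It is also large for Cyp2d9, at chr15:82452377 and chr15:82433437. The letters found for both genes hold for the RefSeq start only. Mup3 starts at chr4:62087317 in RefSeq and at chr4:62087342 in GENCODE, and Mup21 at chr4:62150841 and chr4:62150863.

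Another 4 genes of the set encode enzymes. Hsd3b5 encodes a 3-ketosteroid reductase found in male liver, and its reads numbered 22, 113 and 15 in control and 2158, 222 and 435 in LKO libraries. In normalized counts it was at 20.5, 120 and 16.0 in control livers and at 2568, 209 and 363 in LKO livers, 161-fold between the lowest and the highest liver. The groups did not overlap, and LKO replicate 1 was far above the other 5 livers. The ratio of the means was 20.02 and the log2 fold change 4.04 (SE 0.98), or 2.97 without LKO replicate 1. Hsd3b5 (chr3:98618634-98630252, minus strand) shared 21.2% of its windows, mainly with Hsd3b4 and Gm10681.

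Cyp2d9 encodes the male-specific steroid 16α-hydroxylase of mouse liver and was at 38942, 50722 and 29168 normalized counts in control and at 66437, 56364 and 84894 in LKO livers. The lowest LKO liver, replicate 2, was above the highest control, replicate 2, and LKO replicate 3 was the highest of all. Means of 39611 ± 10792 and 69232 ± 14469 (SD, n = 3 each) gave a ratio of 1.75 and a log2 fold change of 0.82 (SE 0.21). Cyp2d9 (chr15:82433437-82456845, plus strand) shared 21.8% of its windows, mainly with Cyp2d12 and Cyp2d10. Elovl3, an elongase of very long chain fatty acids, was at 1544, 2047 and 1455 normalized counts in control and at 3901, 2026 and 3757 in LKO livers. LKO replicates 1 and 3 were clearly higher than all controls, while LKO replicate 2 and control replicate 2 were nearly equal. The log2 fold change of Elovl3 was 0.90 (SE 0.24), and this gene (chr19:46131897-46135694, plus strand) shared none of its windows with another gene.

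Ugt2b38, a UDP-glucuronosyltransferase that conjugates small lipophilic molecules, was at 66.2, 111 and 90.5 normalized counts in control and at 154, 89.3 and 155 in LKO livers. LKO replicate 2 was no higher than control replicate 3, and the other 2 LKO livers were above every control. The log2 fold change was 0.56 (SE 0.27), or 0.36 without control replicate 1, and 37.4% of the windows of the gene (chr5:87409942-87424203, minus strand) were shared, mainly with Ugt2b5.

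Slco1a1 encodes OATP1A1, a transporter that takes up organic anions at the hepatocyte membrane. It was at 3037, 7289 and 3308 normalized counts in control and at 16598, 6943 and 14479 in LKO livers. LKO replicates 1 and 3 were above every control, and LKO replicate 2 was just below control replicate 2. The ratio of the means was 2.79 and the log2 fold change 1.5 (SE 0.39). Only 1.64% of the windows of Slco1a1 (chr6:141907282-141946962, minus strand) were shared.

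Selenbp2, a selenium-binding protein of liver, was at 1109, 3717 and 2503 normalized counts in control and at 3878, 2853 and 3395 in LKO livers. Control replicate 2 exceeded 2 of the 3 LKO livers, the only case in the set in which LKO replicate 3 was not above every control. The log2 fold change was 0.62 (SE 0.37) and dropped to 0.13 without control replicate 1, the lowest liver, and reached 1.01 without control replicate 2. Selenbp2 (chr3:94693556-94704413, plus strand) shared 43.9% of its windows with Selenbp1.

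The spread inside each group was wide, and the highest control and the lowest LKO liver were the same for every gene of the set. Control replicate 2 was the highest control and LKO replicate 2 the lowest LKO liver for 10 of 10 genes, an order that 10.4% of all genes had. LKO replicate 1 was the highest of the 6 livers for 7 of the 10, against 25.5% of all genes, and LKO replicate 3 was the highest for Mup20, Cyp2d9 and Ugt2b38. Relative to the control mean, the median of the 10 genes on the log2 scale was −0.31, 0.42 and −0.18 in control replicates 1 to 3. In LKO replicates 1 to 3 it was 1.25, 0.37 and 0.98. LKO replicate 2 and control replicate 2 were thus alike in the median, and LKO replicate 2 was above control replicate 2 for 3 of the 10 genes and above the control mean for 9.

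Within the control group the highest liver was more than 2-fold above the lowest for 4 of the 10 genes, against 1.28% of the 13331 genes with a mean of at least 50 normalized counts. Within the LKO group this was so for 5 of the 10, against 2.01%. The 4 in control were Mup1 at 3.26-fold, Hsd3b5 at 7.54-fold, Slco1a1 at 2.40-fold and Selenbp2 at 3.35-fold. Mup1 and Hsd3b5 also had the widest range among LKO livers, 10.3-fold and 12.3-fold, whereas Selenbp2 varied only 1.36-fold there. The median range was 1.83-fold for the set and 1.1-fold for those 13331 genes in control, and 2.13-fold and 1.17-fold in LKO livers. Without LKO replicate 2 the groups did not overlap for 9 of the 10 genes, and without control replicate 2 for 8, with fewer livers to overlap in both cases. Each of these livers was the one of its group nearest the other group for all 10 genes. The share of all genes without overlap is not given for these cases, so the counts have no background to be read against.

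**Figure D2:**
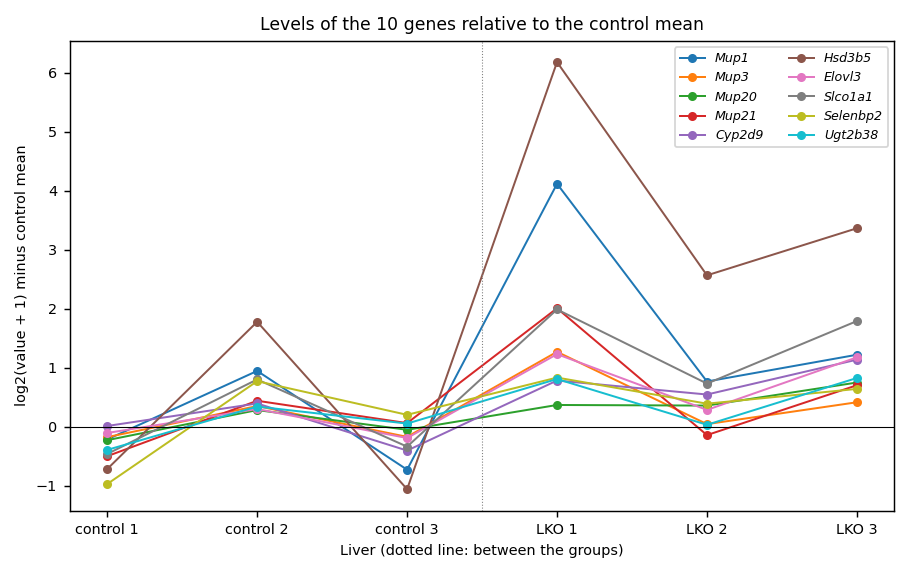
Level of each of the 10 genes in each liver (horizontal axis) as log2(normalized count + 1) minus the mean of the control livers (vertical axis), with lines joining the points of a gene and a dotted line between the groups. Every gene is high in control 2 among controls and low in LKO 2 among LKO livers, with medians of 0.42 and 0.37.

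Reads on the 16 Mup genes of the table together took 0.938%, 1.35% and 1.03% of all reads in control and 1.74%, 1.41% and 1.77% in LKO libraries. All LKO libraries were above all controls, with control replicate 2 and LKO replicate 2 again close. In normalized counts the sum was 821700 ± 160160 in control and 1224700 ± 192050 in LKO livers (SD, n = 3 each), a ratio of 1.49. Mup20 alone held 0.745%, 1.06% and 0.835% of the control reads and 1.07%, 1.16% and 1.46% of the LKO reads, and so most of the family in every liver. The 14 genes other than Mup20 and Mup3 took 0.00518%, 0.0196% and 0.00571% of the control reads and 0.174%, 0.0170% and 0.0307% of the LKO reads. In that remainder LKO replicate 2 was below control replicate 2, and LKO replicate 1 was far above all other livers. Albumin, the main secreted protein of hepatocytes, took 5.16% to 5.83% of reads in control and 5.07% to 5.98% in LKO libraries, with a log2 fold change of 0.02.

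**Figure D3:**
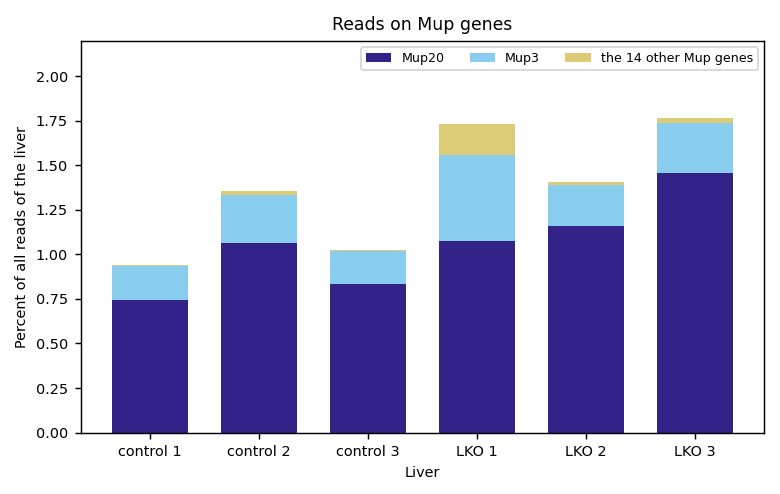
Share of all reads of each liver (vertical axis, percent) that fell on Mup20, Mup3 and the 14 other Mup genes, stacked, in the 3 control and 3 Blnc1 LKO livers (horizontal axis). The stacks reach 0.938% to 1.35% in control and 1.41% to 1.77% in LKO livers, and the 14 other genes are visible mainly in LKO 1.

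The other 12 Mup genes of the table, which were not chosen for the set, all had higher means in LKO livers, and their median log2 fold change was 1.90. None passed an adjusted p under 0.05 in limma, 9 had an unadjusted p under 0.05 in the higher direction, where 2.94% of all genes did, edgeR called 0 and DESeq2 called 4. Mup8 was at 10.3, 24.5 and 9.59 normalized counts in control and at 118, 56.4 and 119 in LKO livers, with no overlap. Its log2 fold change was 2.69 (SE 0.42, limma adjusted p = 0.296). Mup14 was at 982, 4427 and 477 normalized counts in control and at 24438, 4922 and 10809 in LKO livers, a log2 fold change of 3.10 (SE 0.79, limma adjusted p = 0.604). Mup6 had a log2 fold change of 1.25 (SE 0.29, limma adjusted p = 0.548). Mup7, named after its values were seen, was at 303, 5012 and 247 normalized counts in control and at 93552, 3605 and 5664 in LKO livers. As in the set, control replicate 2 was the highest control and LKO replicate 2 the lowest LKO liver for 10 of these 12 genes. The median of the 12 was 1.21 without LKO replicate 1. Near-identical copies in this family leave the split of reads among them uncertain. Low depth also limits some of the 12 genes. Mup10 had at most 13.1 normalized counts in any liver, and Mup11 and Mup15 were at 0 in some livers.

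The relatives of the other 6 genes differed less between the groups, and none passed the adjusted threshold in limma or was called by edgeR or DESeq2. Of 8 other Cyp2d genes 7 had higher means in LKO livers, with a median log2 fold change of 0.19 that became 0.06 without LKO replicate 1 and 0.31 without LKO replicate 2, and Cyp2d10 and Cyp2d12 had an unadjusted p under 0.05 at 0.24 and 0.60. The 6 other Ugt2b genes, Ugt2b1, Ugt2b34, Ugt2b35, Ugt2b36, Ugt2b37 and Ugt2b5, all had higher means, with log2 fold changes between 0.15 and 0.38. The other Hsd3b genes, Hsd3b1, Hsd3b2, Hsd3b3 and Hsd3b7, had log2 fold changes between −0.71 and 0.20. The lowest of these was Hsd3b1, which had under 5 normalized counts in each liver. Elovl1, Elovl2, Elovl4, Elovl5, Elovl6 and Elovl7 lay between −0.40 and 0.21, and Selenbp1 was at −0.04. Among Slco1a4, Slco1a5, Slco1a6, Slco1b2 and Slco1c1 the values ran from −0.20 to 0.77, but 3 of these genes had few reads, and with at least 10 reads required in every liver the median of 0.59 became −0.02.

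Genes with known male bias in liver outside the set and mostly outside its families were read beside it. This list was also written with earlier results of these data known, and whether its genes share a cause with the set was not tested. Of 20 such genes, 19 had a higher mean in LKO livers, with a median log2 fold change of 0.43. In limma 0 passed an adjusted p under 0.05 and 11 had an unadjusted p under 0.05 in the higher direction, against 2.94% of all genes. One, Bcl6, had it in the lower direction, against 2.74%. edgeR called 0 and DESeq2 2 of the 20. The order with control replicate 2 as the highest control and LKO replicate 2 as the lowest LKO liver was found in 11.

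The 3 male-biased genes with the smallest p on the higher side were Susd4, a complement inhibitor, Capn8, a calpain protease, and Cyp4a12b, a fatty acid hydroxylase of male liver. Susd4 had means of 445 ± 138 and 977 ± 236 normalized counts (SD, n = 3 each), which put the log2 fold change at 1.14 (SE 0.24, limma adjusted p = 0.548). Capn8 had a log2 fold change of 1.99 (SE 0.43) and Cyp4a12b one of 1.47 (SE 0.34), both with the same limma adjusted p of 0.548. Bcl6, a transcriptional repressor that is higher in male liver and itself responds to growth hormone, had means of 2047 ± 550 in control and 1405 ± 261 in LKO livers. Its log2 fold change was −0.52 (SE 0.20, limma adjusted p = 0.840), or −0.34 without control replicate 1.

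Genes known to be higher in female liver showed no common direction. Of 35 tested, 16 had a higher and 19 a lower mean in LKO livers, and the median log2 fold change was −0.14, or 0.03 without LKO replicate 3. In limma 0 passed the adjusted threshold, 1 had an unadjusted p under 0.05 in the higher and 4 in the lower direction, edgeR called 0 and DESeq2 called 2. Cyp17a1, the steroid 17α-hydroxylase, was at 2724 ± 513 normalized counts in control and 1227 ± 430 in LKO livers, a log2 fold change of −1.19 (SE 0.22, limma adjusted p = 0.523). Nipal1, a magnesium transporter, had one of −1.10 (SE 0.25, limma adjusted p = 0.548), and the monocarboxylate transporter family gene Slc16a5 one of −0.54. The 1 gene on the higher side was Cyp3a44, a cytochrome P450, at 1.33. Its mean level was 10.03 normalized counts in control and 25.5 in LKO livers.

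**Figure D4:**
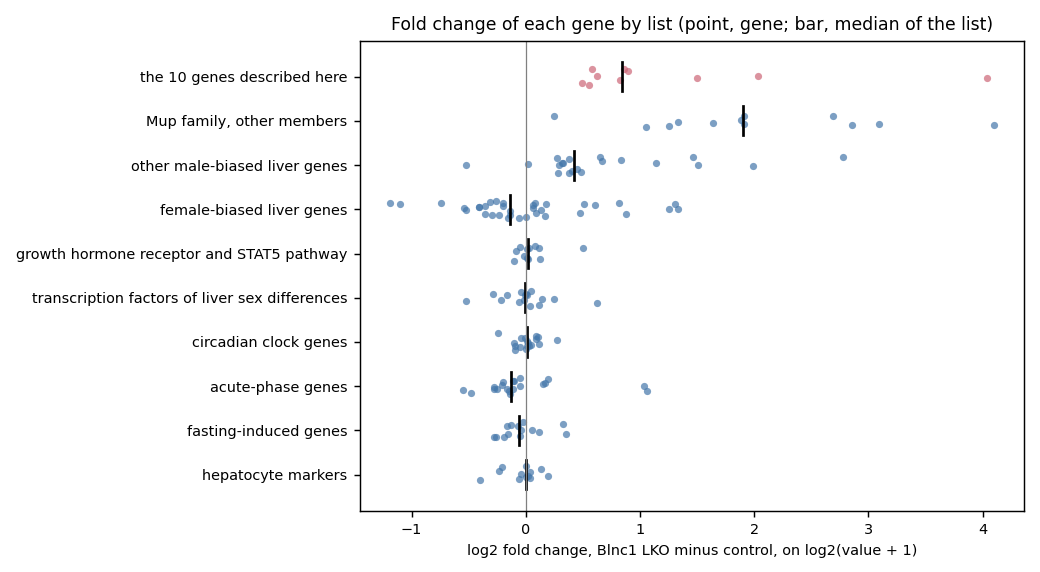
Log2 fold change of each gene (horizontal axis, Blnc1 LKO minus control, on the log2(normalized count + 1) scale) by list (vertical axis), with a bar at the median of each list. The 10 genes of the set have a median of 0.84, the other Mup genes 1.90, other male-biased genes 0.43 and female-biased genes −0.14, and the medians of the other 6 lists drawn lie between −0.13 and 0.02.

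The signalling chain from growth hormone to these genes was measured at the RNA level. Of 12 genes for the receptor, its kinase, STAT5 proteins, feedback inhibitors and the insulin-like growth factor axis, 0 passed an adjusted p under 0.05 in limma, edgeR or DESeq2, and 0 had an unadjusted p under 0.05 in limma. Their median log2 fold change was 0.02, within a range from −0.10 to 0.50. The next values are named for their roles, after they were seen. Ghr, the receptor, was at 0.08 (SE 0.09), Stat5b at −0.09 (SE 0.05) and Igf1, the main endocrine product of the pathway, at −0.10 (SE 0.09). The feedback inhibitor Socs2 was at 990, 2084 and 1026 normalized counts in control and at 1278, 1935 and 875 in LKO livers. Its highest livers were replicate 2 of both groups, and its log2 fold change was 0.01 (SE 0.33). Cish, another feedback inhibitor, was also highest in replicate 2 of both groups, at 1071, 2163 and 1203 normalized counts in control and 2052, 3186 and 1201 in LKO livers.

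Transcription factors linked to liver sex differences were evenly divided, with 8 of 16 higher and 8 lower and a median log2 fold change of −0.00. In limma, edgeR and DESeq2 0 passed the adjusted threshold, and Bcl6, which is also in the list of male-biased genes, had an unadjusted p under 0.05 in the lower direction in limma. Circadian clock genes had a median of 0.01 over 18 genes and fasting-induced genes a median of −0.06 over 14, with 0 genes past an unadjusted p under 0.05 in either list and 0 called by edgeR or DESeq2. Acute-phase genes, which the liver secretes in inflammation, had a median of −0.13 over 20 genes. Of these, 4 had an unadjusted p under 0.05 in the lower direction and 0 passed the adjusted threshold in limma or edgeR, while DESeq2 called 1. Orm2 had a log2 fold change of −0.55, Lcn2 of −0.48 and Saa1 of −0.28.

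Markers of liver cell types were read beside the set, since whole liver was sequenced. The 12 hepatocyte markers had a median log2 fold change of 0.00, with 7 higher and 5 lower. Their summed level ranged from 7807953 to 8499265 normalized counts in control and from 7478727 to 8768791 in LKO livers. Albumin weighs most in these sums, with means of 4078300 in control and 4132100 in LKO livers. Trf, at −0.23, was the 1 marker with every LKO liver below every control. Ass1 had at most 12.1 normalized counts in any liver, so its row says little. The 12 stellate cell and fibroblast markers had a median of −0.10, with 9 lower and 3 higher, 4 at an unadjusted p under 0.05 in the lower direction, and summed to between 123921 and 136394 in control and between 105076 and 124723 in LKO livers. Col1a1, the main chain of fibrillar collagen, was at 15541, 11645 and 14716 normalized counts in control and at 8006, 10928 and 8500 in LKO livers. It was thus lowest among controls in replicate 2 and highest among LKO livers in replicate 2, the reverse of the order of the set. Its log2 fold change was −0.61 (SE 0.14, limma adjusted p = 0.548), and DESeq2 called 4 of the 12 markers.

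Of 13 macrophage markers 5 had an unadjusted p under 0.05 in the higher and 1 in the lower direction in limma, against 2.94% and 2.74% of all genes, and their median was 0.02. Marco had a log2 fold change of 3.03, Vsig4 of 1.04 and Adgre1 of 0.15, and Gpnmb had one of −0.54. The summed level of the macrophage list ran from 96527 to 106896 in control and from 95603 to 112361 in LKO livers. Of 11 endothelial markers 9 had a lower mean in LKO livers, 4 had an unadjusted p under 0.05 in the lower direction, and in 3 every LKO liver was below every control. Their median was −0.10, with Lyve1 at −0.57, Pecam1 at −0.17 and Cdh5 at −0.14, and the sums were 37463 to 40535 in control and 36450 to 37326 in LKO livers. The sums of 8 cholangiocyte markers were 62569 to 75060 and 50177 to 75019, and those of 11 lymphocyte markers 5702 to 6030 and 5536 to 6662. No marker of these lists was at 0 in any liver, and 0 passed the adjusted threshold in limma or edgeR. DESeq2 called none outside the stellate cell list. The part of cell composition in the levels of the 10 genes was not tested.

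The genes of the set also followed each other across the 6 livers. The Pearson r of each gene with the mean of the other 9, each scaled over the livers, ran from 0.758 for Selenbp2 to 0.990 for Slco1a1. Among 12478 other genes with a mean of at least 100 normalized counts, the r with the mean of the set was highest for Ube2h, at 0.997, Aatk, at 0.994, Cyp7b1, at 0.990, Hhip, at 0.989, and Sult5a1, at 0.987. Slc22a28, Tshz1, Sult2a8, Keg1 and Cyp4f14 came next, between 0.976 and 0.983. The lowest r was found for Gdf3, at −0.997, Mrpl54, at −0.996, Lpcat2, at −0.995, Mgst3, at −0.987, and Col1a1, at −0.986. All these values rest on the same 6 libraries, include the difference between the groups, and are the extremes of the 12478 genes.

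The size of the differences varied among these genes. Sult2a8, a sulfotransferase of mouse liver, was at 8501, 14896 and 9631 normalized counts in control and at 42300, 16273 and 24110 in LKO livers. Cyp7b1, an oxysterol 7α-hydroxylase of the male-biased list, was at 3345, 5684 and 3584 in control and at 8273, 4956 and 6436 in LKO livers. Ube2h, a ubiquitin-conjugating enzyme, kept the order of the set with a far smaller range, 4419, 4803 and 4512 normalized counts in control and 5189, 4789 and 5072 in LKO livers. Log2 fold changes were 1.26 (SE 0.32) for Sult2a8, 0.65 (SE 0.22) for Cyp7b1 and 0.13 (SE 0.06) for Ube2h, and none of the 15 genes passed an adjusted p under 0.05 in limma.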

How the data were processed

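RNA of 6 livers, 3 control and 3 Blnc1 LKO, was sequenced from TruSeq libraries. Per the labels the authors used FastQC, STAR, HTSeq and DESeq2 with build mm10, whose versions are not given in the sources used here. The deposited table holds a signal per gene, namely read counts that the authors divided by size factors. Its columns, named WT and KO, were matched to the control and LKO samples by their numbers. Each column was divided by its value of 1 read, and 100% of values came out as whole reads (tolerance 0.01). No column was left unused. Of the symbols, 23 have the form of a date and 2 occur more than once.

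Genes at 1 or more in at least 3 livers were kept. Log2(value + 1) was tested with limma 3.58.1 (R 4.3.3) and Benjamini-Hochberg adjustment. edgeR 4.0.16 and DESeq2 1.42.0 on the recovered reads, other scalings, filters and pseudocounts, a replicate block and leaving out each liver were alternatives. The differential expression fits were also run on simulated counts. The labels do not say that the livers came from separate mice, so p-values measure the spread between these samples. With 3 against 3, an exact permutation test of a single value cannot go below 0.1.

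The 10 genes and all lists were chosen with earlier results of these data known. Named genes were the 10, up to 3 per list and direction with the smallest unadjusted p under 0.05, members of families with 6 or fewer others, and the 10 highest and 5 lowest in likeness. Reads are not independent molecules, and depth limits Mup1, Hsd3b5 and Ugt2b38, with under 100 reads in some livers. Gene positions and shared 50-base windows came from GENCODE M21 (GRCm38), promoters from RefSeq, and identities from Biopython 1.88. The result of 1 gene of the lists is not reported here.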

Additional observations from a re-analysis of the deposited data

How the results depend on the processing

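The direction of the difference was kept for all 10 genes under the 15 alternatives, and their median log2 fold change stayed between 0.64 and 1.08. The number of genes over the whole table with an adjusted p under 0.05 was 1 in limma, 84 with DESeq2, 2 with edgeR, 2 without the filter on low values, and from 0 to 13 when 1 liver was left out, with the highest number without LKO replicate 2. Among the lists of other genes it was 0 in limma, 13 with DESeq2, and 0 to 1 when 1 liver was left out. The number of the 10 genes whose groups did not overlap was 3, and from 3 to 9 when 1 liver was left out, with 9 without LKO replicate 2 and 8 without control replicate 2. The share of all genes without overlap is not given for the settings with 1 liver left out. The causes of the differences among the settings were not tested, and the settings that leave out a liver also have fewer livers.

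With the replicate number as a block the count over all genes was 0, with 912 genes at an unadjusted p under 0.05. Deviations of livers that share a number correlated at −0.06, 0.00 and −0.18 over 15127 genes, and those of livers with different numbers at −0.13 to 0.18. A shared number thus came with no greater likeness. Whether livers of the same number were handled together cannot be read from these values. The block changed no other call. Low depth limits Mup1, Hsd3b5 and Ugt2b38, where the lowest library held 15 reads.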
